A study of Mus musculus with 4 samples.

Results

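Pattern receptors recognise molecules of microbes or of damaged cells, and the 10 genes described here hold 5 Toll-like receptors (*Tlr1*, *Tlr2*, *Tlr4*, *Tlr7*, *Tlr13*), the partners of TLR4 that help it to bind lipopolysaccharide (*Cd14*, *Ly96*), the cytoplasmic receptors of bacterial cell wall fragments (*Nod1*, *Nod2*) and the adaptor that most Toll-like receptors share (*Myd88*). They were chosen by name, as all non-control probes whose gene name in the array files is 1 of these 10 symbols, which gave 13 of 39429 probes and 10 of 29977 gene names. The question was how their levels in the cochlea differ after loss of outer hair cells (OHCs), and how these differences compare with those of macrophage transcripts.

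Each of the 4 groups was measured on 1 array with pooled cochlear RNA of mice of both sexes on the B6J (C57BL/6J) background at 5 weeks of age. The groups are wild-type mice without treatment (WT), wild-type mice 7 days after diphtheria toxin (DT) at 50 μg/kg (WT+DT), *Prestin*-*hDTR* mice without treatment (P-hDTR; OHC-TRECK in the labels) and *Prestin*-*hDTR* mice 7 days after the same dose (P-hDTR+DT). In *Prestin*-*hDTR* mice, the promoter region of *Slc26a5*, the gene of the OHC motor protein prestin, drives a modified human *HB-EGF* as DT receptor, so that DT kills cells that express it, whereas the receptor of the mouse itself binds DT poorly. The transgene was carried by both *Prestin*-*hDTR* groups, which by the study descend from 1 founder line, chosen among 3 for its experiments.

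Toll-like receptors lie at the cell surface (TLR1, TLR2, TLR4, TLR6) or in endosomes (TLR7, TLR13). TLR2 pairs with TLR1 or TLR6 to bind bacterial lipopeptides, TLR4 acts in a complex with MD-2 (*Ly96*) and receives its ligand from CD14, and TLR7 and TLR13 bind RNA. NOD1 and NOD2 signal through the kinase RIPK2. Many of these receptors are strongly expressed in macrophages, which also reside in the cochlea and are known to gather there after hair cell death, while epithelial and other cells carry some of them as well.

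With 1 array per group, no difference has a replicate check and no p-value is given. Levels are log2 intensities relative to the 75th percentile of the same array, so 0 is the level of that percentile, and a difference was called at 2-fold or more. Between 62.2% and 70.6% of the probes of an array were well above background by the flag of the scanner software, no spot was saturated, and precision is limited by having so few arrays. For probes printed in several spots, the median SD over the spots of 1 array was 0.061 to 0.071 (log2), which covers the measurement within an array and not the spread between mice. The OHC marker list checked the labels: 4 of its 7 genes were at least 2-fold lower in P-hDTR+DT mice than in each other group, with a median log2 ratio of -2.37 against P-hDTR mice, and *Strc*, which encodes stereocilin of the OHC hair bundle, was 8.57-fold lower there.

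To show what the probes and promoters of the key genes look like, sequences are given first. The probes of 3 of the receptors hold AATAAA, the hexamer of polyadenylation signals (in capitals), within their last 30 bases, which are shown from the array files because these probes carry the values given below:
Tlr2: gggtaaatctgagaactgcAATAAAgtcct
Tlr13: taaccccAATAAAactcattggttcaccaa
Tlr7: gttcaatgaAATAAAagcccagagaacttc
They belong to probes at chr3:83640344-83640403 (*Tlr2*, minus strand), chrX:103355773-103355832 (*Tlr13*, plus strand) and chrX:163742863-163742922 (*Tlr7*, minus strand) of mm9, the build named in the file headers.

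Promoters are shown for *Tlr2* and *Nod2*, whose levels were among the most different after OHC loss, and for *Nod1*, whose level was nearly the same on all arrays. The 250 bases before the start were taken from RefSeq (GRCm38.p6), which had a window for 6 of the 10 genes, and capitals mark matches on either strand to GGG, any 5 bases and CC, the outline of sites bound by NF-κB, the factor activated by these receptors:
Tlr2 (chr3:83841609-83841858, minus strand): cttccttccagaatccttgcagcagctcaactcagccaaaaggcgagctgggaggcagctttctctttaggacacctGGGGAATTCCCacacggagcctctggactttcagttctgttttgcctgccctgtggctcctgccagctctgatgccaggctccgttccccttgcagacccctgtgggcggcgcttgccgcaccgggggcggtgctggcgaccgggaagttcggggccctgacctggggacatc
Nod2 (chr8:88647097-88647346, plus strand): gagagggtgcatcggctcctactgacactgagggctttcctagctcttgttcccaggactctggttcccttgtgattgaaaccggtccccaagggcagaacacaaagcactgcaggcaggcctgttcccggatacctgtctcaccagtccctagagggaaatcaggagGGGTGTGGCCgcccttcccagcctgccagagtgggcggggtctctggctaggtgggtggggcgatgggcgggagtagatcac
Nod1 (chr6:54972613-54972862, minus strand): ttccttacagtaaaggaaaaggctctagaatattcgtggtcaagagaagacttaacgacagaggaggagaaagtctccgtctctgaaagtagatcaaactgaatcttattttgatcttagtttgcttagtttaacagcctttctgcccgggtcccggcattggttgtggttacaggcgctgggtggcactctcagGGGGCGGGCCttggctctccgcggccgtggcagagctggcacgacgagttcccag
*Tlr2* had overlapping matches that begin 173 and 172 bases before the start, *Nod2* had 1 match at 82 bases and this *Nod1* window 1 match at 55 bases. The other *Nod1* window and those of *Tlr1*, *Tlr13* and *Myd88* held none. Such matches were common, since 45.8% of all 32851 windows of this length held at least 1, and a match is not a bound site. Of 2 further motifs searched on both strands, a pair of TTTC with any 2 bases between them, the outline of an interferon response element found in 2.98% of windows, occurred once, in *Myd88* at 40 bases. GAGGAA, a purine-rich element bound by factors of the ETS family and found in 23.3% of windows, occurred once in *Tlr13* at 83 bases and once in 1 of 2 windows of *Tlr1* at 23 bases.

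The receptor levels differed from the other arrays to unequal degrees in P-hDTR+DT mice. *Nod2*, *Cd14*, *Tlr2*, *Tlr1* and *Tlr13* were 1.49-fold to 2.58-fold higher there than in each other group, whereas *Tlr7*, *Tlr4*, *Myd88* and *Ly96* were 1.02-fold to 1.36-fold higher and *Nod1* was slightly lower. Members 2-fold or more higher in all 3 comparisons were *Cd14* and *Nod2*, which is 2 of 10, against 1.24% of the 19146 genes compared. With the normexp background correction in place of that of the scanner software, the log2 ratios were 0.98 to 1.12 for *Cd14* and 0.86 to 0.96 for *Nod2*, so that neither was 2-fold higher in all 3. The level in P-hDTR+DT mice exceeded that of all 3 other groups for 9 of 10 receptors (34.4% of all genes), and for 8 of 10 it did so by more than the range of those 3 groups (16.3% of all genes). *Myd88* is among these 8 by a narrow margin, with a gap of 0.149 and a range of 0.145 (log2).

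**Figure D1:**
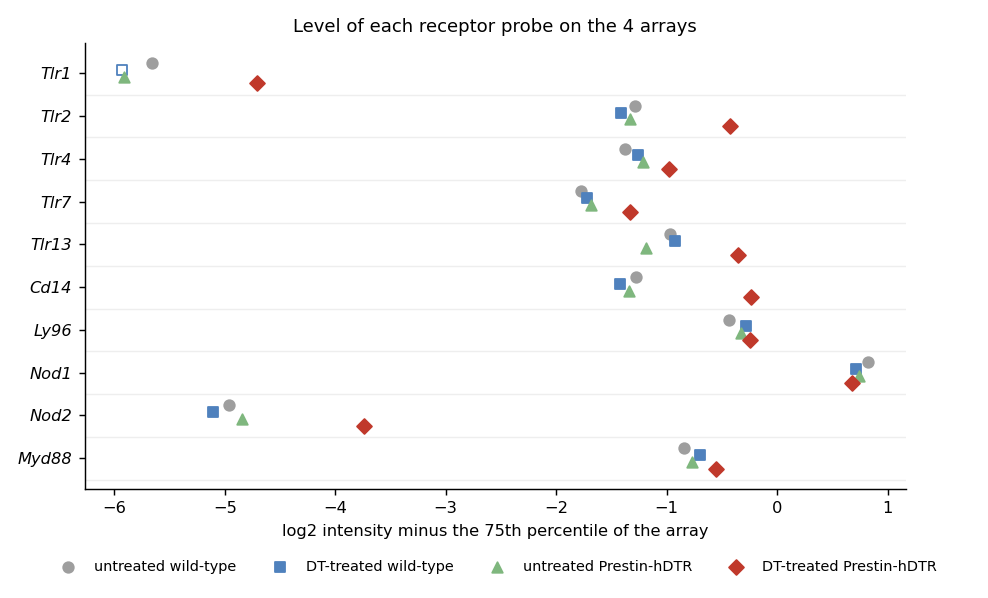
Level of the probe used for each receptor on the 4 arrays, as log2 intensity minus the 75th percentile of the array, with 1 symbol per array and an open symbol where the probe was not well above background. The DT-treated Prestin-hDTR array (red diamonds) lies apart to the right for Tlr1, Tlr2, Tlr13, Cd14 and Nod2, and lowest of the 4 for Nod1.

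The surface receptors of lipopeptides were all higher. *Tlr2*, which forms the shared chain of these receptor pairs, had a level of -1.29 in WT mice, -1.41 in WT+DT mice, -1.34 in P-hDTR mice and -0.42 in P-hDTR+DT mice. The 3 other groups lay within 0.12 of each other (log2), and the P-hDTR+DT array was 0.87 above the highest of them, or 1.88-fold, 1.82-fold and 1.99-fold above P-hDTR, WT and WT+DT mice. These folds fell just short of the 2-fold threshold.

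The *Tlr2* probe is printed in 10 spots on each array, which gives a technical check. Its intensity was 2326 ± 75 (SD over 10 spots) in P-hDTR+DT mice, and 1116 ± 64.3, 1187 ± 37.5 and 1196 ± 60.3 in WT, WT+DT and P-hDTR mice. After scaling, the lowest of the 10 spots in P-hDTR+DT mice (-0.48) was far above the highest of the 30 spots of the other arrays (-1.12).

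*Tlr1*, the partner of TLR2 for triacylated lipopeptides, was measured near background. Its intensity was 53.9 in WT mice, 51.8 in WT+DT mice, where it was not well above background, 50.2 in P-hDTR mice and 119.6 in P-hDTR+DT mice. The last of these was the highest, at 2.30-fold over P-hDTR mice, 1.94-fold over WT mice and at least 1.71-fold over WT+DT mice, a bound set by the lowest signal well above background on that array. *Tlr6*, the partner of TLR2 for diacylated lipopeptides, is no member of the chosen group but belongs to the same receptor, and it differed most of the Toll-like receptors measured. Its level was -5.15 and -5.33 in WT and P-hDTR mice, -5.67 and not well above background in WT+DT mice, and -2.76 in P-hDTR+DT mice. It was thus 5.94-fold and 5.24-fold higher than in P-hDTR and WT mice, and at least 6.57-fold higher than in WT+DT mice. The *Tlr1* and *Tlr6* probes lie 28191 bases apart on chromosome 5, at chr5:65316115-65316174 and chr5:65344365-65344424 of mm9, and their best alignment without gaps matched 22 of 60 bases.

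**Figure D2:**
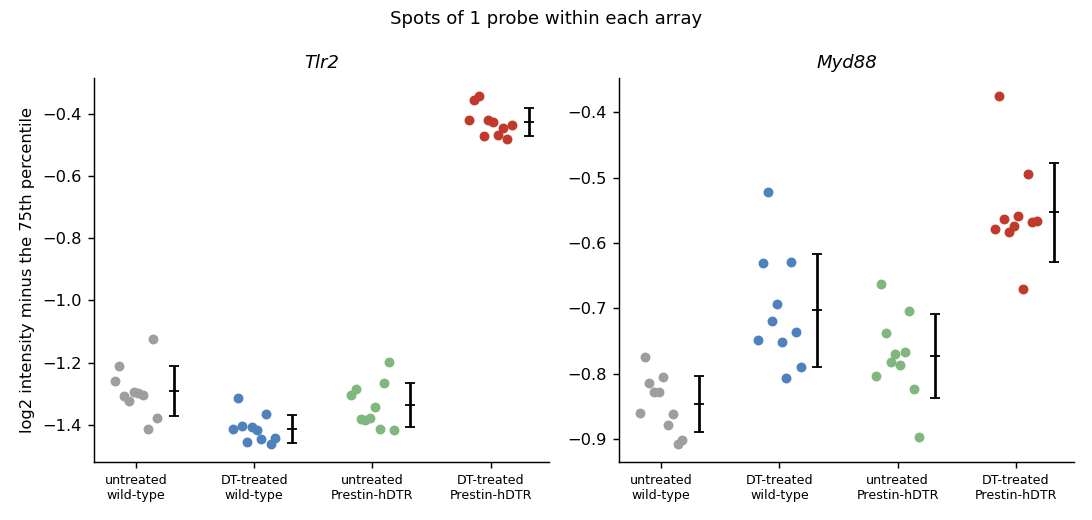
Level of each of the 10 spots of the Tlr2 and the Myd88 probe on the 4 arrays, as log2 intensity minus the 75th percentile of the array, with the mean and SD of the spots as a black bar beside them. The Tlr2 spots of DT-treated Prestin-hDTR mice (mean -0.42) do not overlap those of any other array, whereas the Myd88 spots of that array (mean -0.55) overlap those of DT-treated wild-type mice (mean -0.70).

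The parts of the lipopolysaccharide receptor differed unequally. *Cd14*, which hands lipopolysaccharide to TLR4 and also serves TLR2, had a level of -1.28 in WT mice, -1.42 in WT+DT mice, -1.34 in P-hDTR mice and -0.24 in P-hDTR+DT mice. Only the last stood apart, at 2.15-fold, 2.06-fold and 2.28-fold above P-hDTR, WT and WT+DT mice. *Tlr4* itself had levels of -1.37, -1.26, -1.22 and -0.97 in the same order of groups, which is 1.18-fold to 1.32-fold higher in P-hDTR+DT mice. *Ly96* had levels of -0.44, -0.28, -0.33 and -0.25, so that its level in P-hDTR+DT mice exceeded that in WT+DT mice by 1.02-fold only, less than the spread among the 3 other groups (0.16 on the log2 scale). The other *Tlr4* probe was dim on all 4 arrays, below the scanner flag for background. The *Cd14* probe lies at chr18:36884969-36885028 (minus strand), the *Tlr4* probe used at chr4:66503470-66503529 (plus strand), and the *Ly96* probe spans chr1:16696289-16699561 (plus strand), all in mm9, with 60 bases of probe set over an interval of 3273 bases.

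The endosomal receptors of RNA were higher by less than 2-fold. *Tlr13*, which binds bacterial ribosomal RNA, had levels of -0.97 in WT, -0.93 in WT+DT, -1.19 in P-hDTR and -0.35 in P-hDTR+DT mice. It was 1.78-fold, 1.53-fold and 1.49-fold higher in P-hDTR+DT mice than in P-hDTR, WT and WT+DT mice. *Tlr7*, which binds single-stranded RNA, had levels of -1.77, -1.72, -1.69 and -1.33 in the same order, the narrowest spread of all 10 genes among the 3 other groups (0.085), and was 1.28-fold to 1.36-fold higher in P-hDTR+DT mice. Of its 2 further probes, 1 was dim on every array and the other also had its highest level in P-hDTR+DT mice (-2.93, against -3.56 to -3.18 elsewhere).

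NOD1 and NOD2, which sense related cell wall fragments, had different patterns. *Nod2* was dim, with an intensity of 87.4 in WT mice, 91.6 in WT+DT mice, 105 in P-hDTR mice and 233 in P-hDTR+DT mice, and it was well above background on all 4 arrays. It was the most raised of the 10 genes against both wild-type groups, at 2.33-fold over WT and 2.58-fold over WT+DT mice, and was 2.14-fold over P-hDTR mice. *Nod1* had levels of 0.83, 0.71, 0.74 and 0.67 in the order given above, was lowest in P-hDTR+DT mice, and there differed from the other groups by at most 1.11-fold. Their probes lie at chr8:91212245-91212304 (*Nod2*, plus strand) and chr6:54874007-54874066 (*Nod1*, minus strand) of mm9.

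*Myd88*, the shared adaptor, also has 10 spots per array, at chr9:119245322-119245381 (minus strand, mm9). Its level was -0.85 in WT, -0.70 in WT+DT, -0.77 in P-hDTR and -0.55 in P-hDTR+DT mice, the highest of the 4 by 0.15 (log2). This gap was about as wide as the range of the 3 other groups (0.15) and wider than the SD over the spots of this array (0.076), while single spots of this and the WT+DT array overlapped. The fold in P-hDTR+DT mice was 1.11 to 1.23.

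The DT effect was then set out for each genotype. Against untreated mice of the same genotype, members 2-fold or more higher numbered 3 of 10 in *Prestin*-*hDTR* mice (*Tlr1*, *Cd14* and *Nod2*; 2.94% of all genes) and 0 of 9 with a value in wild-type mice (1.59% of all genes), where the log2 ratios ran from -0.15 (*Nod2*) to 0.16 (*Ly96*). Against WT and WT+DT mice, 2 of 10 were called higher in P-hDTR+DT mice (2.18% and 1.54% of all genes), and none was called lower (1.52%, 2.09% and 1.95% of all genes against P-hDTR, WT and WT+DT mice, and 1.15% for WT+DT against WT mice). Between the untreated genotypes, 0 of 10 were called in either direction (1.06% of all genes higher, 2.50% lower), and the ratios ran from -0.25 (*Tlr1*) to 0.16 (*Tlr4*). The median ratio of the 10 genes was 0.60, 0.53 and 0.48 against P-hDTR, WT and WT+DT mice, beside -0.013, -0.030 and 0.010 over all genes. These comparisons share arrays, in particular the P-hDTR+DT array, so a deviation of that array enters all 3.

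**Figure D3:**
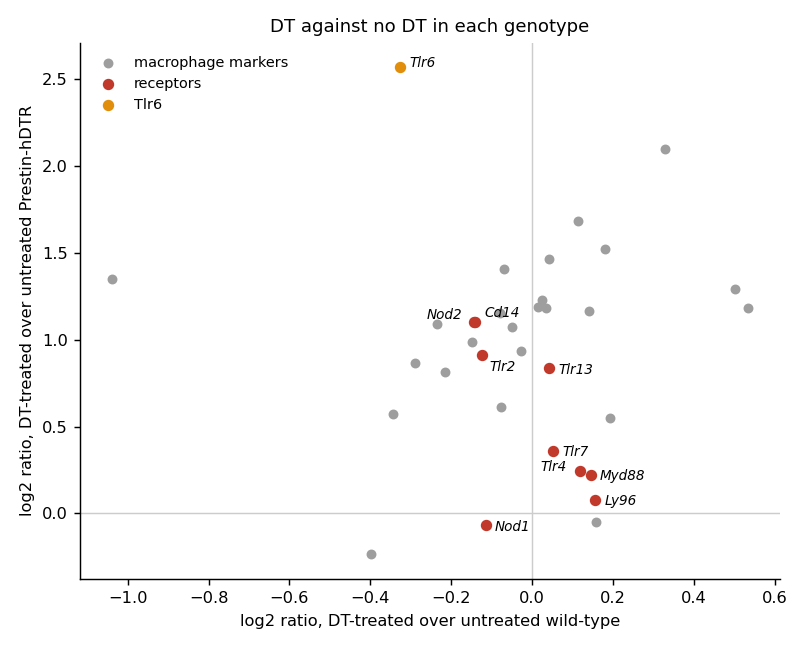
Log2 ratio of DT-treated over untreated mice in wild-type (x axis) and Prestin-hDTR mice (y axis) for 9 receptors with a value in both, Tlr6 and 24 macrophage markers, 1 point per gene. The receptors spread from -0.069 to 1.10 along the y axis and stay between -0.15 and 0.16 along the x axis, where the value of Tlr6 is an upper bound.

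Macrophage transcripts were higher in the same array. Of 26 markers, 24 were measured, and 15, 9 and 8 of them were 2-fold or more higher in P-hDTR+DT mice than in P-hDTR, WT and WT+DT mice. In all 3 comparisons 7 markers were called, among them *Adgre1* (an adhesion receptor used as a macrophage marker; 2.05-fold to 2.28-fold), *Cd68* (a lysosomal protein; 2.32-fold to 2.76-fold) and *Mpeg1* (perforin-2; 2.61-fold to 3.21-fold). The list had medians of 1.16, 0.87 and 0.88 (log2 ratio) and ran from -0.24 (*Itgam*) to 2.10 (*Lyz2*), from -0.75 (*Itgam*) to 1.63 (*Lyz2*) and from -0.35 (*Itgam*) to 1.39 (*Ms4a7*). *Csf1r*, the receptor of the macrophage growth factor, was 1.32-fold to 1.53-fold higher, and *Cd163* and *Spi1* were at background on every array by the scanner flag. Before DT, these markers were slightly lower in P-hDTR than in WT mice, with a median log2 ratio of -0.21 and 1 marker called lower (*Cybb*, -1.89), so the choice of control moves the ratios. In whole cochleae, more macrophages and more RNA of these genes per cell cannot be told apart.

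Set against this list, the receptors differed by less in their median. The median ratio of the 10 genes lay below the macrophage median by 0.56, 0.34 and 0.39 (log2) in the 3 comparisons. *Nod2* lay above the macrophage median by 0.35 and 0.49 against WT and WT+DT mice, with 5 and 2 of the 24 markers higher still, but just below it (-0.062) against P-hDTR mice. With the normexp correction, these values for *Nod2* were 0.056, 0.093 and -0.17. *Cd14* behaved alike, at 0.17 and 0.31 above it and just below it (-0.060). Against the median of 10 core macrophage markers, both genes lay above it in the comparison with P-hDTR mice also, by 0.20 each, so the direction there depends on the marker list. *Tlr2* and *Tlr1* were close to the macrophage median, from -0.25 to 0.11 and from -0.11 to 0.084 around it, where the lowest value of *Tlr1* is a lower bound. *Tlr13* lay 0.25 to 0.33 below it. *Tlr7*, *Tlr4*, *Myd88*, *Ly96* and *Nod1* lay 0.43 to 1.23 below it, with 19 to 23 of the 24 markers above each of them. *Tlr6* alone among the Toll-like receptors measured exceeded every macrophage marker in all 3 comparisons, by 1.41, 1.52 and at least 1.84 over the median. With the normexp correction, the log2 ratio of *Tlr6* against P-hDTR mice was 1.96. This is under the 2.10 of *Lyz2* obtained with the correction of the scanner software. Whether *Tlr6* still exceeded every marker with normexp was not compared. In place of a median over genes, summed levels gave 5.08 to 5.13 in the 3 other groups and 6.52 in P-hDTR+DT mice for the receptors (1.27-fold to 1.28-fold), and 33.6 to 41.1 and 61.4 for the macrophage markers (1.49-fold to 1.83-fold). The sum of the 10 core markers was 1.45-fold, 1.17-fold and 1.32-fold higher than in P-hDTR, WT and WT+DT mice. Against WT mice the receptor sum (1.27-fold) thus differed by more than the core sum. That core sum depends on the bright marker *Itgam*, whose level was lower in P-hDTR+DT (2.43) than in WT mice (3.18). The receptor sum in turn depends most on *Nod1* and *Ly96*, the brightest receptors in WT mice (levels 0.83 and -0.44) and those that differed least. By medians against WT mice, the core markers differed by more (log2 ratio 0.69) than the receptors (0.53).

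**Figure D4:**
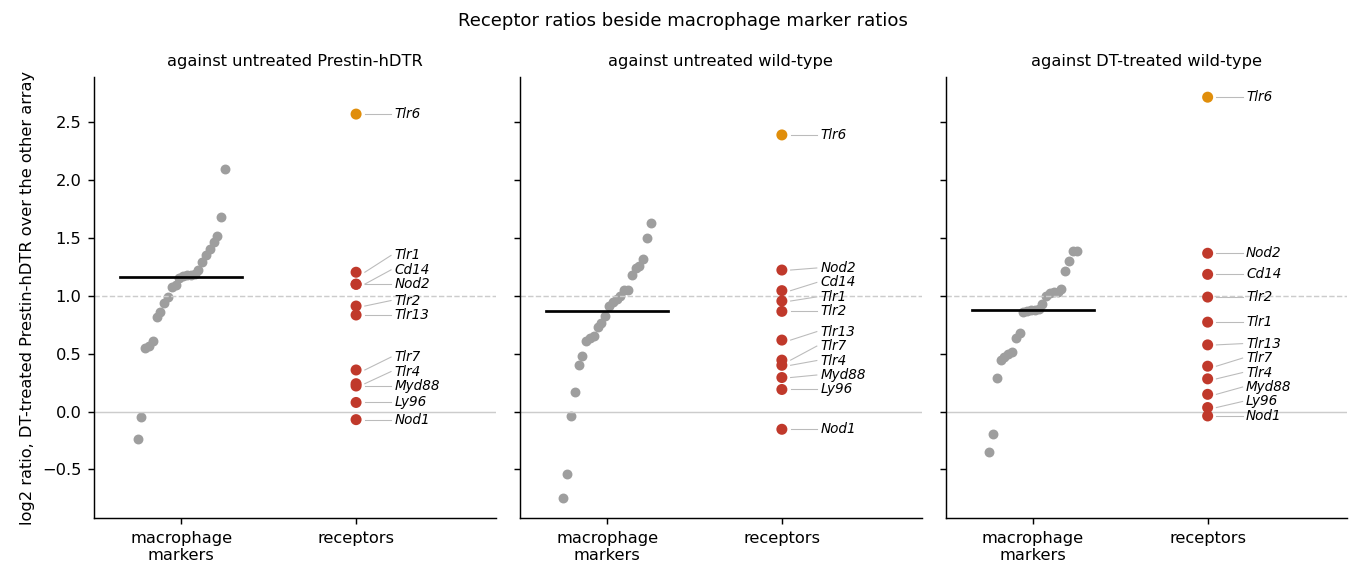
Log2 ratio of DT-treated Prestin-hDTR mice over each other array for the 24 measured macrophage markers (grey, sorted, with the median as a black line) and for the 10 receptors and Tlr6 (red and orange), with a dashed line at 2-fold. Nod2, Cd14, Tlr1 and Tlr2 lie near the macrophage medians of 1.16, 0.87 and 0.88, Nod1 lies just below 0, and Tlr6 lies above all markers.

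Markers of other blood cells differed between arrays in another order. The summed level of 14 neutrophil markers was 67.2, 88.2, 39.3 and 46.2 in WT, WT+DT, P-hDTR and P-hDTR+DT mice, and that of 6 B cell markers was 0.54, 1.24, 0.47 and 0.57. Neither had its highest value in P-hDTR+DT mice. The neutrophil sum depends in large part on the bright marker *Csf3r*, whose levels were 4.82, 4.75, 4.65 and 4.45 in the same order. Against P-hDTR mice alone, however, neutrophil markers were higher together with the receptors, with a median log2 ratio of 0.70, 11 of 12 measured genes above 0 and 4 called, among them *Lcn2* (4.05-fold), whereas the medians were -0.37 against WT and -1.25 against WT+DT mice. Of the monocyte markers, *Ccr2* was called in all 3 comparisons (2.28-fold to 6.02-fold), but the list had a median ratio of 0.98 against P-hDTR mice, -0.0084 against WT and -0.75 against WT+DT mice. The sums of 3 T and NK cell markers (1.38 to 1.81) and of 5 dendritic cell markers (24.1 to 29.3) were not highest in P-hDTR+DT mice either (1.55 and 24.1). These sums depend in large part on the bright markers *Cd4* (levels 0.50, 0.17, 0.075 and 0.26) and *Siglech* (4.82, 4.71, 4.67 and 4.54). The NK cell marker *Ncr1* was well above background in P-hDTR+DT mice only. Its log2 ratios were at least 1.31, 0.848 and 0.399 against P-hDTR, WT and WT+DT mice, so it was called against P-hDTR mice. *Cd3e* and *Cd4* were lower than in WT mice (-0.21 and -0.25). The part of these cells in the receptor levels was not tested.

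Accessory proteins of the Toll-like receptors were mostly higher, by less than 2-fold. All 6 measured of 7 were above 0 in all 3 comparisons, with median log2 ratios of 0.78, 0.56 and 0.63. *Lbp*, which passes lipopolysaccharide to CD14, had levels of 0.95, 1.02, 0.90 and 1.72 and was 1.63-fold to 1.77-fold higher in P-hDTR+DT mice. *Cd36*, a co-receptor of the TLR2 and TLR6 pair, was 2.66-fold and 2.48-fold higher than in P-hDTR and WT mice and 1.72-fold higher than in WT+DT mice. *Unc93b1*, which escorts endosomal receptors, was 1.41-fold to 1.65-fold higher, and the folding factor *Cnpy3* was lowest of the list, at 0.052 to 0.089 (log2).

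Of the Toll-like receptors outside the group, 5 of 7 were measured and *Tlr6* alone was called. *Tlr3*, the receptor of double-stranded RNA, was 1.34-fold to 1.54-fold higher, *Tlr9*, the receptor of CpG DNA, 1.21-fold to 1.24-fold higher, and *Tlr12* was lowest, with log2 ratios of -0.31, -0.70 and -0.73. *Tlr8* and *Tlr11* were at background on every array by the scanner flag.

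Downstream of the receptors, no signalling gene passed the 2-fold threshold. Of 18 signalling genes 16 were measured, 0 were called in any of the 5 comparisons, and the medians were 0.059, 0.11 and 0.040. The extremes were *Map3k7* (-0.19) and *Irak3* (0.48) against P-hDTR, *Traf3* (-0.14) and *Irak4* (0.53) against WT, and *Map3k7* (-0.24) and *Irak2* (0.48) against WT+DT mice. None of the 13 genes of the NF-κB and IRF list was called either (medians 0.0069, 0.029 and -0.011), and *Irf5*, a factor of macrophages and B cells, was the highest of them in each comparison (1.46-fold to 1.81-fold).

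Several target genes of these receptors were 2-fold or more higher in P-hDTR+DT mice. Of 17, 9 were measured, and the medians were 0.95, 1.16 and 0.88, with 4, 5 and 2 genes called. The chemokines *Ccl3* and *Ccl4*, which attract leukocytes, were called in all 3 comparisons. *Ccl4* had levels of -4.66, -4.79, -4.56 and -2.70, or 3.62-fold to 4.24-fold higher in P-hDTR+DT mice, and *Ccl3* was 3.91-fold higher than in P-hDTR mice and at least 5.09-fold and 4.40-fold higher than in WT and WT+DT mice. *Cxcl10* was called against P-hDTR and WT mice (2.75-fold and 2.27-fold), as was *Ccl5* (2.12-fold and 2.23-fold), and *Il1b* was called against WT mice (2.23-fold). *Nos2*, which encodes inducible nitric oxide synthase, had log2 ratios of -0.010 to 0.18. *Tnf*, *Il1a*, *Il10*, *Il12b*, *Cxcl1*, *Cxcl2* and *Ifnb1* were at background on every array by the scanner flag.

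Among 16 other NOD-like receptors and inflammasome genes, 11 were measured in each comparison with P-hDTR+DT mice, 0 were called, and the medians were 0.11, 0.12 and 0.098, with *Naip6* lowest in each (-0.48, -0.52 and -0.61) and *Casp1* (0.82), *Nlrp3* (0.45) and *Pycard* (0.37) highest in the first, the second and the third. Among 16 further pattern receptors, 0 were called higher in all 3 comparisons. *Clec4d* and *Fpr1* were called against P-hDTR mice (2.42-fold and 2.15-fold) and WT mice (2.35-fold and 2.23-fold). Against WT+DT mice, *Clec4d* was only 1.25-fold higher and *Fpr1* had nearly the same level (0.95-fold). *Clec7a*, which encodes the β-glucan receptor dectin-1, was 2.04-fold, 1.97-fold and 1.72-fold higher. *Fpr2* was 2.75-fold and 2.55-fold lower than in WT and WT+DT mice, but 1.17-fold higher than in P-hDTR mice. Without DT, it was already 3.22-fold lower in P-hDTR than in WT mice. *Ager* was at least 2.54-fold lower than in WT+DT mice, where it was at least 3.55-fold above WT mice. *Ager* was well above background on only 2 arrays and had no value against P-hDTR or WT mice. Of 10 genes for endogenous ligands, 8 were measured, and those for the S100 proteins, which neutrophils also carry, were the only ones called in comparisons with P-hDTR+DT mice: *S100a8* was lower in P-hDTR+DT than in WT+DT mice by a log2 ratio of -1.52 and *S100a9* by -1.24. Without DT, both were already lower in P-hDTR than in WT mice (-1.61 and -1.34). Against P-hDTR mice, both were higher in P-hDTR+DT mice (0.75 and 0.69). *Hmgb1* and *Hspd1* had log2 ratios between -0.21 and -0.13 in the 3 comparisons.

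**Figure D5:**
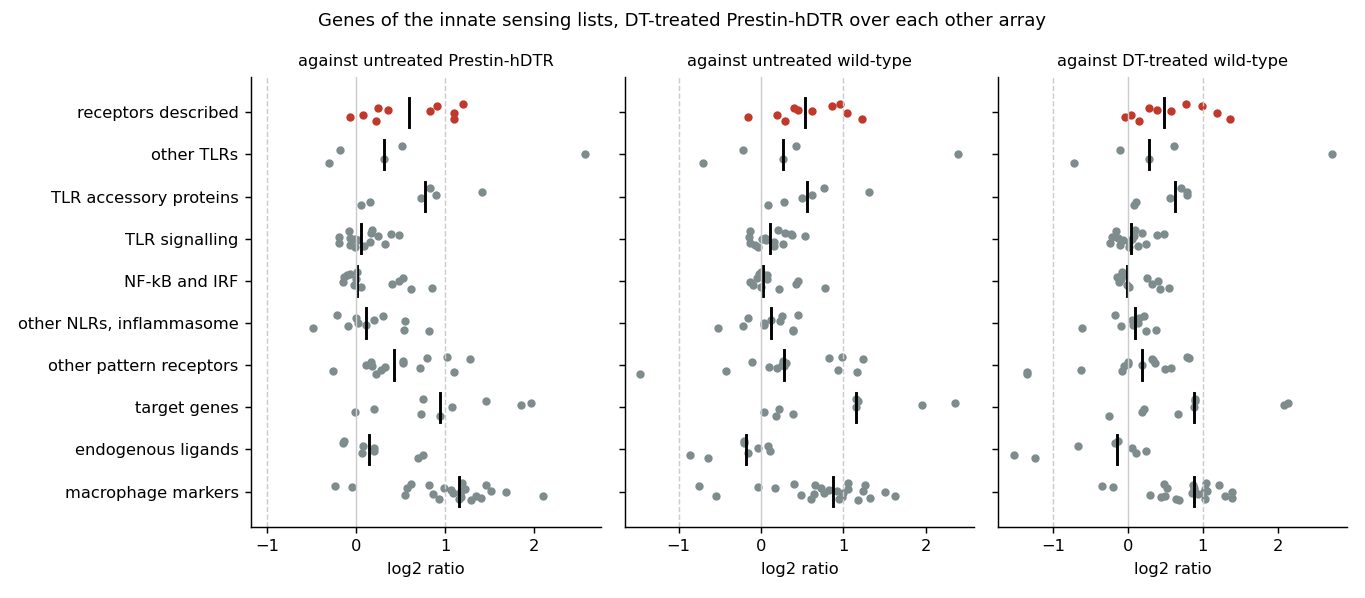
Log2 ratio of DT-treated Prestin-hDTR mice over each other array for genes of 10 lists, 1 point per gene with a value and a black line at the median of the list, with dashed lines at 2-fold. The signalling and the NF-kB and IRF lists gather near 0 (medians from -0.011 to 0.11), and the target genes and macrophage markers have the highest medians.

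The genes nearest to the median pattern of the 9 receptors with signal above background on every array were sought among 18222 genes, by the distance between log2 levels centred on their mean over the 4 arrays. The 10 nearest, at distances of 0.021 to 0.032, were *Lcmt2*, *Tnfrsf19*, a probe named NAP113365-1, *Cept1*, *G6pdx*, *Slc24a5*, *Cited1*, *Adam9*, *Cers2* and *Gal3st3*. This pattern equals 0.30 in P-hDTR+DT mice and -0.15 to -0.060 in the other groups, against 0.70 and -0.38 to -0.16 for the macrophage markers. By the same distance, *Tlr2*, *Tlr13* and *Cd14* were nearest to the macrophage pattern (0.20, 0.23 and 0.25) and *Nod1* was farthest (0.91). Distances over 4 arrays describe these arrays only.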

How the data were processed

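Cy3-labelled cochlear RNA of each of 4 groups was run on an Agilent mouse array, 1 per group, all 4 on 1 slide. The design text gives n = 8 (4 females and 4 males) for the pooled RNA, and the methods word the 8 as cochleae per mouse. The authors deposited scanner files whose intensity per spot is linear and background-subtracted by Agilent Feature Extraction 11.5.1.1, with no scaling between arrays, and other flags of that software per spot. Their value table is the same signal scaled by a constant for every array.

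Control spots and the 149 to 228 outlier spots per array were left out, spots of a probe were averaged, and log2 intensity minus the 75th percentile of the array was used. A gene was represented by its brightest probe well above background on at least 1 array. A gene dim on both arrays of a comparison was left out of it. A dim signal was raised to the lowest signal well above background on its array, and the fold is then given as "at least"; where this bound was under 1, no value is given. Differences were called at 2-fold, with no test, since each group has 1 array.

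Names followed the array files or the RefSeq table (symbol for 29803 probes, accession for 1635, synonym for 295, file name kept for 7696). The members, lists and rules were chosen with earlier results of these data known. Named genes are all members, list genes called at 2-fold, extremes of a list and the 10 genes nearest in pattern; further list genes were named after their values were seen. *Ly6c2* had no probe under that name. The steps were tested on simulated data with changes set only in bright probes well above background on every array. Changes in dim genes such as *Nod2*, *Tlr1* and *Tlr6* were therefore not covered. The 8 alternatives change the floor, filter, background correction (normexp of limma 3.58.1, offset 50, R 4.3.3), scaling, source, probe choice or marker list. Python 3.11.15, numpy 2.4.6, pandas 2.3.3 and matplotlib 3.10.9 were used.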

Additional observations from a re-analysis of the deposited data

Results flagged for a closer look

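The DT effect went in opposite directions in *Prestin*-*hDTR* and wild-type mice for 3 of the 10 receptors, a difference between groups that rests on 1 array per group and was not tested. For *Tlr2*, the log2 ratio of DT-treated over untreated mice was 0.91 in *Prestin*-*hDTR* and -0.12 in wild-type mice, a difference of 1.04. For *Cd14*, it was 1.10 and -0.14, a difference of 1.24. For *Nod2*, it was 1.10 and -0.15, a difference of 1.24. All 3 wild-type values are only a little larger than the spread of a ratio between spots (0.10 on the log2 scale).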

How the results depend on the processing

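Of 728 values recomputed for the receptors and *Tlr6*, 658 stayed within the spread between spots (0.10 on the log2 scale, or 1.5 times for a count). The other 70 moved, and no called value changed sign. Some values could not move, since a constant per array cancels in a ratio set against the macrophage median. By setting, 26 of 101 values moved with normexp and 24 of 36 with the core markers, against 0 of 101 with median scaling. Relative to the macrophage median, values against P-hDTR mice did change sign for *Tlr1* (-0.25 to 0.30), *Nod2* (-0.17 to 0.20), *Cd14* (-0.060 to 0.20) and *Tlr2* (-0.25 to 0.010). Values of *Tlr1* also changed sign against WT mice (-0.28 to 0.28) and WT+DT mice (-0.16 to 0.35), as did *Tlr2* against WT mice (-0.0052 to 0.17). With the normexp background correction, 0 receptors were 2-fold or more higher in P-hDTR+DT mice in all 3 comparisons (0.764% of all genes). *Cd14* then had log2 ratios of 1.06, 0.98 and 1.12 against P-hDTR, WT and WT+DT mice. *Nod2* had ratios of 0.86 to 0.96 and *Tlr6* of 1.72 to 2.05 (0.91 to 1.18 above the macrophage median). The other alternatives called *Cd14* and *Nod2* in all 3 comparisons, in which 0.527% to 1.84% of all genes were called. With probes well above background on all 4 arrays, which leaves out *Tlr1*, the median ratio against P-hDTR mice was 0.36, and relative to the macrophage median it was -0.80. Against 10 core macrophage markers, the median of the receptors lay at -0.30 and -0.16 relative to the list in the comparisons with P-hDTR and WT mice. The ratio of *Tlr1* in P-hDTR+DT mice ran from 0.53 to 1.33 over the settings and the 3 comparisons. *Nod2*, *Tlr1* and *Tlr6* are dim, with signals near the limit of detection, so their folds are the least precise. No paired analysis was possible because each group has 1 array, and no array could be left out for the same reason.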
